A study of Mus musculus with 100 samples.

Results

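The peaks described here are those whose centre was annotated to a long terminal repeat (LTR) retrotransposon in ChIP-seq peak tables from mouse macrophages and osteoclast precursors. A row was taken when its detailed annotation named an element of the LTR class, which held for 41209 of 550767 rows (7.48%) in 13 tables, and the rows were grouped as MaLR, ERVK, ERVL and ERV1 elements. The rule used the annotation and no tag count. The same peak position recurs between tables, and the 41209 rows fell on 10427 separate loci. Rows with no repeat in the annotation (448325, or 81.4%) served for comparison, as a whole and within introns and intergenic DNA (350921), because LTR peaks of the 12 factor tables lay only there.

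LTR retrotransposons are descendants of retroviruses and related elements that copied themselves into the germ line through RNA. Each copy was flanked by a pair of LTRs that held its promoter and enhancer sequence, and most copies have since recombined to a solitary LTR. Many families therefore scattered near-identical sites for transcription factors across the genome. In the mouse, the ERV1 and ERVK families are closest to gammaretroviruses and betaretroviruses, ERVL is a distant and older group, and MaLR elements (the MT and ORR1 series) are ERVL relatives without retroviral genes. NCoR is a corepressor that carries the histone deacetylase HDAC3, PGC1β and p300 are coactivators, ERK1 is a kinase, p65 is the activating subunit of NF-κB, Fosl2 is an AP-1 protein and PU.1 is the lineage factor that opens macrophage enhancers.

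All cells came from C57BL/6 mice. For the 8 stimulation tables (NCoR, HDAC3, PGC1β, ERK1, p300, p65, Fosl2 and PU.1), wild-type bone marrow-derived macrophages (BMDMs) were starved of serum and given Kdo2 lipid A (KLA), a TLR4 agonist, for 6 h, or vehicle (Veh). The unstimulated p300 libraries were labelled as 0 h of KLA. A second PGC1β experiment compared Veh and KLA in DMSO with KLA plus the ERK inhibitor LY3214996 (ERKi), and a further NCoR table set KLA plus ERKi beside the KLA and Veh libraries of the first NCoR table. ERK1 and p300 were also profiled in wild-type bone marrow cells on day 0 and day 4 of osteoclast differentiation with M-CSF and RANKL. The ERK1 libraries of this culture were described as NCoRWT, except the second library of day 4, and the p300 libraries were not. H3K27ac, a mark of active enhancers and promoters, was profiled with Veh or KLA in BMDMs from NCoR flox/flox mice (WT) and from NCoR flox/flox mice with LysM-Cre (NKO). LysM-Cre deletes in myeloid cells, so NKO is not a complete loss in every cell. Each group held 2 libraries.

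The 48 factor libraries held 4296236 to 21511411 tags and the 8 H3K27ac libraries 13562132 to 19634995. The study's methods call the ChIP replicates biological, but the labels did not say whether the 2 libraries of a group came from separate cultures or animals, so the p-values measure only the spread between these libraries. In the p300 table of osteoclast culture, 7 of 10 macrophage and 7 of 9 osteoclast marker genes had a promoter peak, and the summed osteoclast level was 161 to 172 tags per 10000000 on day 0 and 861 to 992 on day 4. T cell, B cell and fibroblast markers had none, and of 5 neutrophil markers S100a8 alone had one (14.9 to 22 on day 0 and 28.4 to 34.2 on day 4). The part of these markers in the results was not tested.

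As examples, 120-base stretches around the motif of strong copies follow, 5′ to 3′, from the RefSeq GRCm38.p6 assembly (mm10), with matches to the motif in capitals. For NF-κB the letters searched were GGANTTTCC and, added after the LTRIS sequences had been seen, GGGNTTTCC. For PU.1 they were GAGGAAGT and for AP-1 TGANTCA. Both strands were read. Only copies with a match are printed, so they do not show how common a match is among the peaks of a name. GAGGAAGT stood in 17.7% of MTC and 47.4% of ORR1E peaks of PU.1, and in 18.1% of all PU.1 peaks.
LTRIS_Mm copy 1: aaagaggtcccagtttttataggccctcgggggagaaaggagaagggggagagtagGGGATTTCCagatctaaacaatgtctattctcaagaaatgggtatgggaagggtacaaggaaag
LTRIS_Mm copy 2: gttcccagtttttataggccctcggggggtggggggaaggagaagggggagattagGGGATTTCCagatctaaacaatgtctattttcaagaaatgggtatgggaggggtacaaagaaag
LTRIS_Mus: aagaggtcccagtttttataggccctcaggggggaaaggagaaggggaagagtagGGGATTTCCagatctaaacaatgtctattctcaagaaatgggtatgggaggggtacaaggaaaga
MERV1_LTR copy 1: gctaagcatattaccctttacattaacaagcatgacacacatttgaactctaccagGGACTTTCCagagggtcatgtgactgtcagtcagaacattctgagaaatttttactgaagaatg
MERV1_LTR copy 2: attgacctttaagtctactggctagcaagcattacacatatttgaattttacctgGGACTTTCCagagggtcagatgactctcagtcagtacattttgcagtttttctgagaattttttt
RLTR48A upstream of Il6: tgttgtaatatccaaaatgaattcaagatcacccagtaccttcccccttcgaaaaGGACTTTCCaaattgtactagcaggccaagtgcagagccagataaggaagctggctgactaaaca
MTC: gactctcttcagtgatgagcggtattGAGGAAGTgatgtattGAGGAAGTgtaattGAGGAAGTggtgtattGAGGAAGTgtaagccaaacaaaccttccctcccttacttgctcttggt
ORR1E: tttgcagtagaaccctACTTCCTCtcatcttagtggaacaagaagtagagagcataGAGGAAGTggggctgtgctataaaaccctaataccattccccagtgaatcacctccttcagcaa
RMER15 copy 1: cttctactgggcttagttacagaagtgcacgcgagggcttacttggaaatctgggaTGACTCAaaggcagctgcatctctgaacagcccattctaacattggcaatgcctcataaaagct
RMER15 copy 2: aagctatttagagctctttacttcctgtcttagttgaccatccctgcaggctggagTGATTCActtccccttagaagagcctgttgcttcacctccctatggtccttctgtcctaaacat

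The first LTRIS_Mm copy lies at chr7:43667638-43667757 (minus strand, intergenic, at -4267 bp from the start of Ctu1) and the second at chr6:49500303-49500422 (minus strand, intergenic, nearest gene Stk31). The LTRIS_Mus copy lies at chr4:62266398-62266517 (plus strand, intergenic, nearest gene Slc31a2). The MERV1_LTR copies lie in introns at chr4:116422339-116422458 (minus strand, Mast2) and chr12:78299171-78299290 (plus strand, Gphn), and the RLTR48A copy is intergenic at chr5:29935856-29935975 (plus strand). The MTC copy is intronic at chr6:52842712-52842831 (minus strand, Jazf1), the ORR1E copy is intergenic at chr15:103549630-103549749 (plus strand, nearest gene Ppp1r1a), and the RMER15 copies are intronic at chr4:88214003-88214122 and chr8:11767628-11767747 (both plus strand). The first LTRIS_Mm copy and the LTRIS_Mus copy differed by 6 edits in 120 bases (95% identity) and the second LTRIS_Mm copy differed from either by 17 (85.8%). The MERV1_LTR copies differed by 37 (69.2%) and the RMER15 copies by 66 (45%), so the printed LTRIS windows were the most alike.

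LTR elements took a like share of the peaks of every factor. The share ran from 6.01% for PGC1β to 8.78% for PU.1 over the 12 factor tables, with a median of 7.86%, and from 7.12% to 10.6% when only peaks in introns and intergenic DNA were counted. In the H3K27ac table it was 4.32%, or 7.61% of the intronic and intergenic peaks. LTR peaks were intergenic more often than the non-repeat peaks of introns and intergenic DNA, at 58.2 to 62.4% against 40.8 to 47.9%. MaLR elements made up 53.8 to 65.8% of LTR peaks, ERVK 16.8 to 19.8%, ERVL 11 to 16.9% and ERV1 5.14% (PU.1) to 9.7% (p65).

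**Figure D1:**
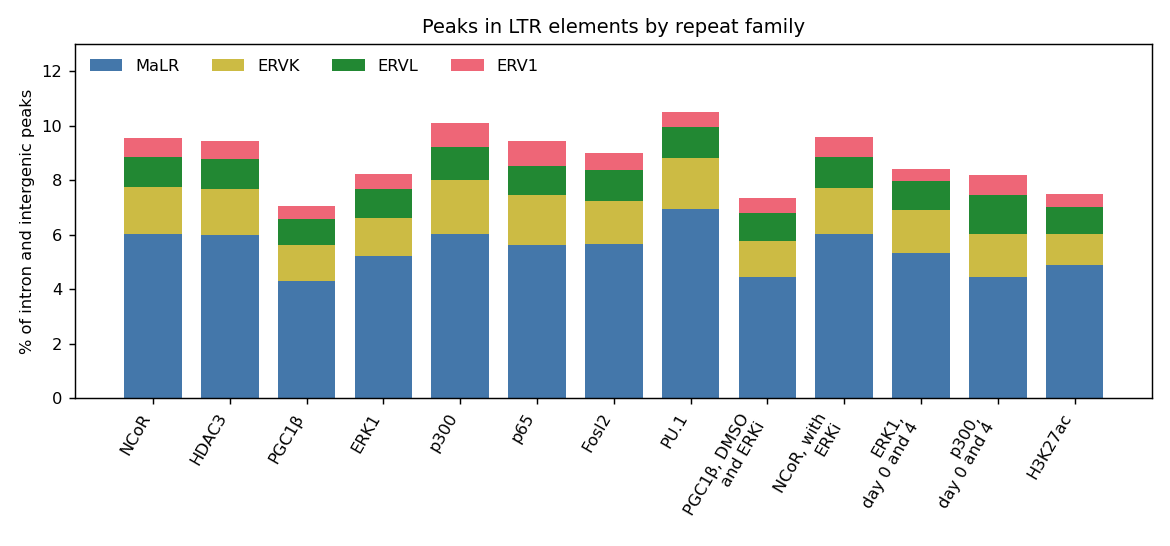
Share of intronic and intergenic peaks (percent, y axis) that lay in each LTR family, as stacked bars for each of the 13 tables. MaLR was the tallest block in every bar, and the whole bar was tallest for PU.1 (10.6%).

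Peaks seen in one condition only differed in their LTR share. Of peaks called only with KLA, 9.06% lay in LTR elements for NCoR, against 7.53% of those called only with Veh and 7.24% of those called in both. For p65 the shares were 9.13% with KLA only, 4.55% with Veh only and 6.46% in both, and ERV1 made up 10.8% of the LTR peaks of the KLA-only class and 3.73% of the Veh-only class. For PU.1 the order was the opposite, with 7.36% of KLA-only and 8.95% of Veh-only peaks. In the p300 table of osteoclast culture, 7.05% of day 4-only peaks and 4.37% of shared peaks were in LTR elements. Counted over introns and intergenic DNA alone, the gap for p65 was smaller, with 10.1% of KLA-only and 8.28% of Veh-only peaks, and for NCoR the shares were 10.7% and 9.29%. For p300 the order turned, from 9.81% against 7.87% of all peaks to 10.7% against 10.9% there, and for Fosl2 the KLA-only share was the lower on both counts (8.06% against 8.20%, and 8.87% against 9.94%). These classes were set by the peak calls, so the shares are descriptions.

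The same few names led in every table. MTD held 459 NCoR peaks (10.4% of the LTR peaks) and 550 PU.1 peaks (12.4%), and it was followed by MTC (358 and 372) and ORR1E (262 and 293). Young, mobile families held few peaks. Intracisternal A particle (IAP) names held 17 NCoR peaks, VL30 names 9, the MLV-like group 7, ETn and MusD 4, and the names MERVL-int and MT2_Mm none, while the related MERVL_2A-int had at least 5 peaks in 7 of the 8 stimulation tables. How reads that fit several copies of an element were counted is not given in the sources used here. As a measure of this limit, the share of a peak's 32-base words that occur once in the assembly was computed. It was at least 90% for 76.3 to 82.3% of LTR peaks, for 87.9 to 95.9% of ERVL peaks, but for only 56.8 to 83% of ERV1 and 59.4 to 64.7% of ERVK peaks.

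LTR peaks were weaker than other peaks. The median over the libraries of a table was 35 tags per 10000000 at LTR peaks and 41.7 at non-repeat peaks for NCoR, 23.7 and 29.6 for p300, 27.8 and 34.5 for p65, and 65.4 and 69.3 for PU.1. The ratio to non-repeat peaks of introns and intergenic DNA was between 0.829 (p300) and 0.943 (ERK1 in osteoclast culture) in the factor tables, and 0.668 for H3K27ac. A few LTR peaks were strong all the same. The MLT2D peak at chr10:80751580-80751801, upstream of the histone methyltransferase gene Dot1l, held 424 and 376 NCoR tags with KLA and 548 and 669 with Veh. An MLT1D peak by the germ-cell gene Dppa3 (chr6:122654375-122654733 in the p65 table) held the most tags of all LTR peaks in 5 tables, with 548 and 625 p65 tags with KLA and 259 and 296 with Veh. It lay among the peaks of p65, Fosl2, ERK1 and both osteoclast tables.

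To ask how KLA moved these peaks, each was tested with edgeR's quasi-likelihood test, and a peak was called higher or lower at an adjusted p under 0.05 and a change of at least 2-fold. The exact permutation of 2 libraries against 2 cannot fall below p = 0.333, so single values have no exact test that could pass. NCoR rose at 1143 of 4430 LTR peaks (25.8%, against 23.4% of all peaks) and fell at 652 (14.7%, against 16.7% of all). HDAC3 rose at 1204 and fell at 422 of 3824 (27.5% and 11.3% of all peaks did so). PGC1β rose at 550 and fell at 197 of 2744 (16.4% and 6.35% of all), and in the DMSO experiment rose at 622 and fell at 30 of 3258 (16.4% and 1.23% of all). With libraries scaled by TMM the split was 1158 higher and 677 lower for NCoR, 1071 and 578 for HDAC3, 532 and 278 for PGC1β, and 323 and 87 for PGC1β in DMSO. The shares called at LTR peaks were thus near those at all peaks.

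The coactivator and NF-κB tables moved further. p300 rose at 2771 of 5956 LTR peaks and fell at 702 (42.1% and 12.9% of all peaks), and p65 rose at 2703 of 4177 and fell at 150 (57.0% and 5.43% of all). ERK1 rose at 222 and fell at 49 of 1862 (10.3% and 2.53% of all), and Fosl2 at 281 and 111 of 2450 (11.4% and 4.19% of all). The Fosl2 calls were not stable when 1 library was left out. Their number was lower without either Veh library and higher without either KLA library, and the cause was not tested. PU.1 went the other way, with 213 of 4451 LTR peaks higher and 1048 lower (4.53% and 21.7% of all). TMM scaling gave 2158 higher and 1207 lower for p300, 1324 and 524 for p65, 177 and 76 for ERK1, 447 and 229 for Fosl2, and 453 and 538 for PU.1. Under it the median log2 change of all peaks moved from 0.65 to 0.14 for p300, from 1.46 to 0.24 for p65 and from -0.41 to 0.00 for PU.1, so changes are given below beside those of other peaks of the same table.

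Measured against non-repeat peaks, LTR peaks had the higher median log2 change in 7 of the 8 stimulation tables. It was 0.25 against 0.03 for NCoR, 0.42 against 0.22 for HDAC3, 0.18 against 0.02 for PGC1β, 0.41 against 0.21 for ERK1, 0.91 against 0.56 for p300, 1.78 against 1.35 for p65, -0.06 against -0.19 for Fosl2 and -0.43 against -0.42 for PU.1, and with TMM scaling the non-repeat medians of HDAC3 and PGC1β turned to -0.06 and -0.09. Part of the gap went with position. Non-repeat peaks in introns and intergenic DNA had medians of 0.10, 0.29, 0.07, 0.31, 0.79, 1.62, -0.08 and -0.45 in the same order, which left gaps of 0.02 (Fosl2 and PU.1) to 0.16 (p65). Peaks in other repeat classes had medians above those of LTR peaks for NCoR (0.48), HDAC3 (0.65), p300 (1.18) and p65 (2.01). Peak strength moved with the change too. Among the weakest NCoR peaks, taking equal parts by strength, the median was 0.98 at LTR peaks and 0.95 at non-repeat peaks of introns and intergenic DNA, and among the strongest it was -0.20 and -0.25.

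**Figure D2:**
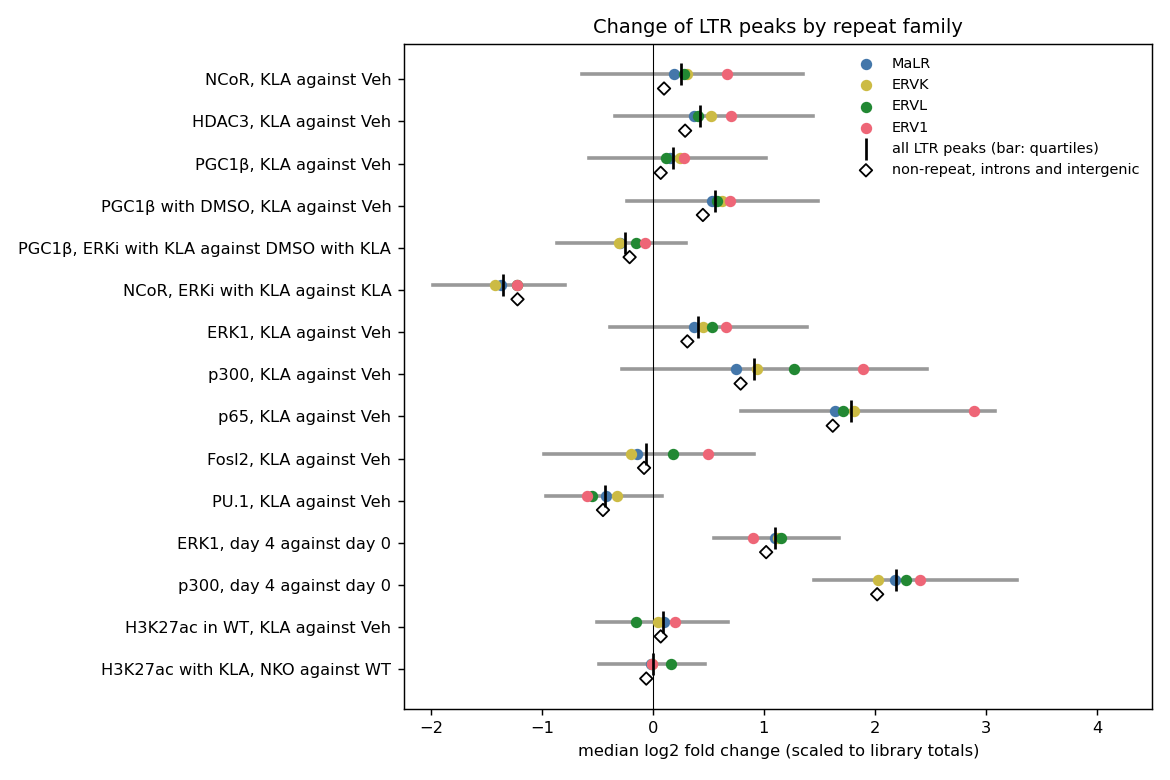
Median log2 change (x axis) of all LTR peaks, intronic and intergenic non-repeat peaks and the 4 LTR families in each comparison (y axis). Grey bars show the quartiles of all LTR peaks. ERV1 lies farthest right of the families for p65 (2.89) and p300 (1.89), and PU.1 lies left of 0.

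The ERV1 family, the gammaretrovirus-like group, had the highest median of the families after KLA for p65, p300, NCoR and HDAC3. Its median log2 change was 2.89 for p65, where MaLR, ERVK and ERVL had 1.64, 1.81 and 1.71, and 1.89 for p300, where they had 0.75, 0.94 and 1.27. For NCoR it was 0.67 against 0.19, 0.31 and 0.28, and for HDAC3 0.70 against 0.37, 0.52 and 0.41. p65 rose at 329 and fell at 5 of 405 ERV1 peaks (57.0% and 5.43% of all peaks). p300 rose at 301 and fell at 51 of 506 (42.1% and 12.9% of all), and NCoR rose at 128 and fell at 48 of 327 (23.4% and 16.7% of all). Of these ERV1 peaks, 338 for p65, 321 for p300 and 178 for NCoR were called as peaks only with KLA, so the counts are descriptions. With TMM scaling the ERV1 medians were 1.67 for p65, 1.37 for p300, 0.66 for NCoR and 0.38 for HDAC3, still above the other families. In PU.1 all 4 families had medians between -0.59 (ERV1) and -0.32 (ERVK), and the ERVK value turned to 0.10 with TMM and 0.09 with DESeq2.

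Within ERV1, peaks of the related LTR names LTRIS_Mm and LTRIS_Mus rose in most stimulation tables. p65 rose at 87 of 87 LTRIS peaks, p300 at 91 of 91, NCoR at 38 of 40, HDAC3 at 31 of 32, Fosl2 at 23 of 24, PGC1β at 7 of 7 and PU.1 at 1 of 2. The median p65 level was 43.4 and 47.9 tags per 10000000 in the KLA libraries and 0 in both Veh libraries. A peak that entered a table only through its KLA libraries had to be higher there, so these counts are descriptions. Since 38 of the 87 peaks had no tag in either Veh library, their changes are lower bounds, taken from a floor of 3 tags a library, and with them at the bound the median log2 change was 3.95. The same median was 4.31 for p300, 3.19 for NCoR, 5.39 for HDAC3 and 4.81 for Fosl2. The LTRIS peaks fell on 103 loci, of which 101 were higher in at least 1 of the tables, 30 in at least 4 and none lower. ERV1 peaks outside LTRIS had medians of 2.33 for p65, 1.11 for p300 and 0.41 for NCoR, so that for p300 they stood below ERVL (1.27).

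The LTRIS copies are also those whose sequence is least distinct. A median of 19.6 to 30% of their words occurred once in the assembly. The single NCoR copy with every word unique held 44.5 and 57.4 tags with KLA and 37 and 21.2 with Veh (log2 change 0.81) and was not called. Reads of one copy may thus count at another, and the number of bound copies cannot be told from these peaks. Sums over all peaks of a name do not depend on how reads are placed among those peaks. Reads shared with copies outside the peaks, or with another name such as LTRIS_Mus for LTRIS_Mm, can still move the sums. They were tested across names with the tags in non-repeat peaks as library size, so that a name rises when it gains more than non-repeat peaks do.

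Summed over names, LTRIS_Mm held 113 and 116 p65 tags per 100000 non-repeat tags with KLA and 7.72 and 8.52 with Veh, a log2 change of 3.82 ± 0.09 (SE, adjusted p = 1.55e-12). It held 96 and 97.6 p300 tags with KLA and 3.78 and 6.28 with Veh (4.29 ± 0.12), 65.2 and 63.2 Fosl2 tags against 2.45 and 3.58 (4.40 ± 0.17), and 32.4 and 34.5 NCoR tags against 2.87 and 1.71 (3.90 ± 0.16). In each of these factors both KLA libraries lay far above both Veh libraries. The sums include peaks that entered a table only through its KLA libraries and had to be higher there. Those sums, with their p-value, are therefore descriptions as well, and the same holds for other names that rose. MERV1_LTR rose with p65 from 5.95 and 3.85 to 32.6 and 33.4 (2.76 ± 0.15) and with NCoR from 1.96 and 1.25 to 14.4 and 16.4 (3.28 ± 0.20). Its 11 p65 peaks, 11 of which were called higher, had a median of 88.5% of words found once. RLTR48A rose with p300 (4.12 ± 0.15), p65 (2.80 ± 0.22), NCoR (2.65 ± 0.28) and Fosl2 (2.26 ± 0.27). These directions were the same with whole library totals as library size.

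Across all LTR names with at least 5 peaks, 69 of 160 rose and 41 fell in NCoR relative to non-repeat peaks (57.1% and 17.7% of all repeat names tested did so). The numbers were 57 and 39 of 134 for HDAC3 (57.2% and 20.9% of all names), 42 and 22 of 109 for PGC1β (50.2% and 13.5%), 38 and 16 of 135 for PGC1β in DMSO (45.5% and 8.04%), 16 and 6 of 68 for ERK1 (38.2% and 5.24%), 100 and 48 of 202 for p300 (58.5% and 21.4%), 89 and 20 of 159 for p65 (62.1% and 12.2%), 29 and 37 of 96 for Fosl2 (42.0% and 25.4%) and 54 and 54 of 142 for PU.1 (47.6% and 28.1%). LTR names thus rose no more often than repeat names of all classes together. The falls were relative to non-repeat peaks. With whole library totals the higher and lower LTR names were 41 and 29 for NCoR, 16 and 0 for HDAC3, 19 and 2 for PGC1β, 75 and 0 for PGC1β in DMSO, 25 and 1 for ERK1, 162 and 6 for p300, 156 and 0 for p65, 2 and 0 for Fosl2 and 9 and 113 for PU.1.

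Some names went the same way with every factor. MTC, an abundant MaLR solitary LTR, rose in 8 of 8 stimulation tables, by 0.14 (Fosl2) to 0.51 (PGC1β) on the log2 scale. PGC1β held 459 and 442 MTC tags per 100000 non-repeat tags with KLA and 316 and 314 with Veh, and PU.1 held 1012 and 1014 against 880 and 889 (0.20 ± 0.01). MTA_Mm rose in 8 of 8 as well, with NCoR at 171 and 175 against 94.4 and 84.5 (0.95 ± 0.05), and RMER6A in 8 of 8, with p65 at 64.2 and 61.5 against 33.6 and 32.7 (0.92 ± 0.08). RMER15, an ERVL name, rose in 7 of 8, with p300 at 344 and 341 against 232 and 228 (0.57 ± 0.02). These changes are relative to non-repeat peaks. With whole library totals as library size MTC was higher in 4 tables and lower in 1 (PU.1, -0.15), RMER15 higher in 3 and lower in 1, and MTA_Mm and RMER6A higher in 5 each and lower in none.

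Other names fell with every factor relative to non-repeat peaks. ORR1D2 fell in 8 of 8 tables, by -0.05 (PU.1) to -0.40 (Fosl2), and ORR1E in 7 of 8. NCoR held 448 and 446 ORR1E tags with KLA and 600 and 606 with Veh (-0.43 ± 0.02), whereas p65 held 371 and 374 against 359 and 359 (0.05, adjusted p = 0.067). RMER19C, an ERVK name, fell in 8 of 8, most with Fosl2, from 65.9 and 68.5 to 23.5 and 25.6 (-1.43 ± 0.11). The IAP internal name IAPLTR3-int, resting on 5 to 7 peaks, fell in 7 of the 7 tables in which it was tested, with p300 at 2.77 and 3.44 against 8.48 and 7.57 (-1.37 ± 0.16). With whole library totals ORR1D2 was lower in 1 table and higher in 2, ORR1E lower in 2 and higher in 2, and RMER19C lower in 4 and higher in 1, so these are falls relative to other peaks.

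**Figure D3:**
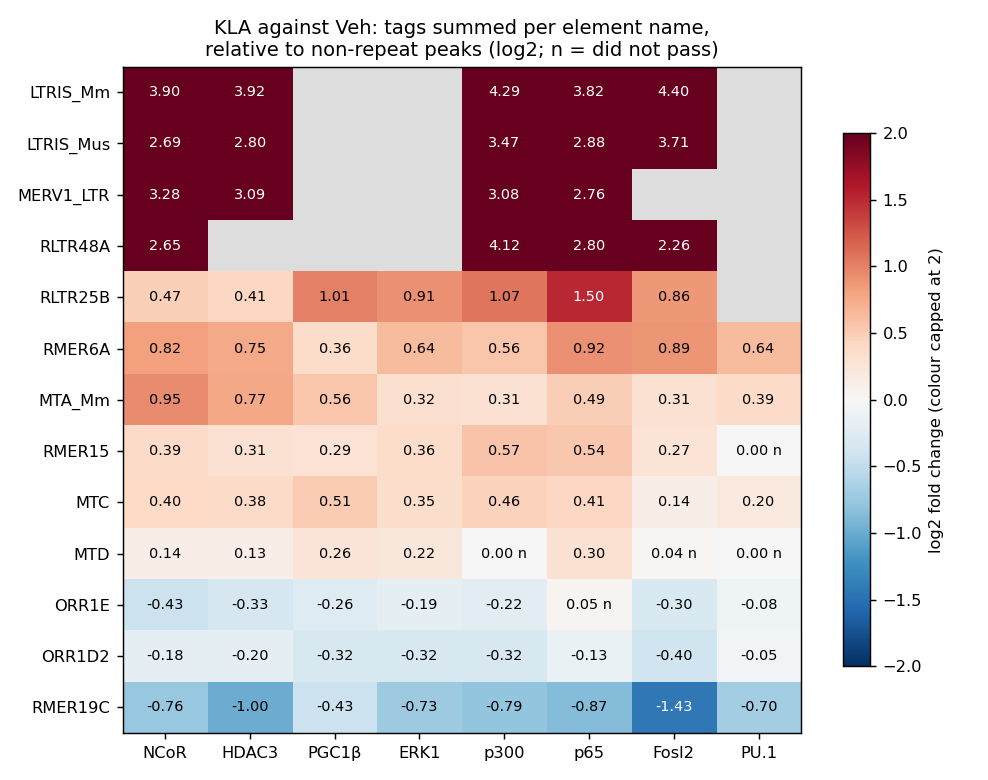
Log2 change of summed tags relative to non-repeat peaks (colour, value in each cell) for 13 LTR names (rows) in the 8 stimulation tables (columns). LTRIS_Mm is the deepest higher cell in the Fosl2, p300, NCoR, HDAC3 and p65 columns (up to 4.40) and RMER19C is lower in every column (to -1.43).

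**Figure D4:**
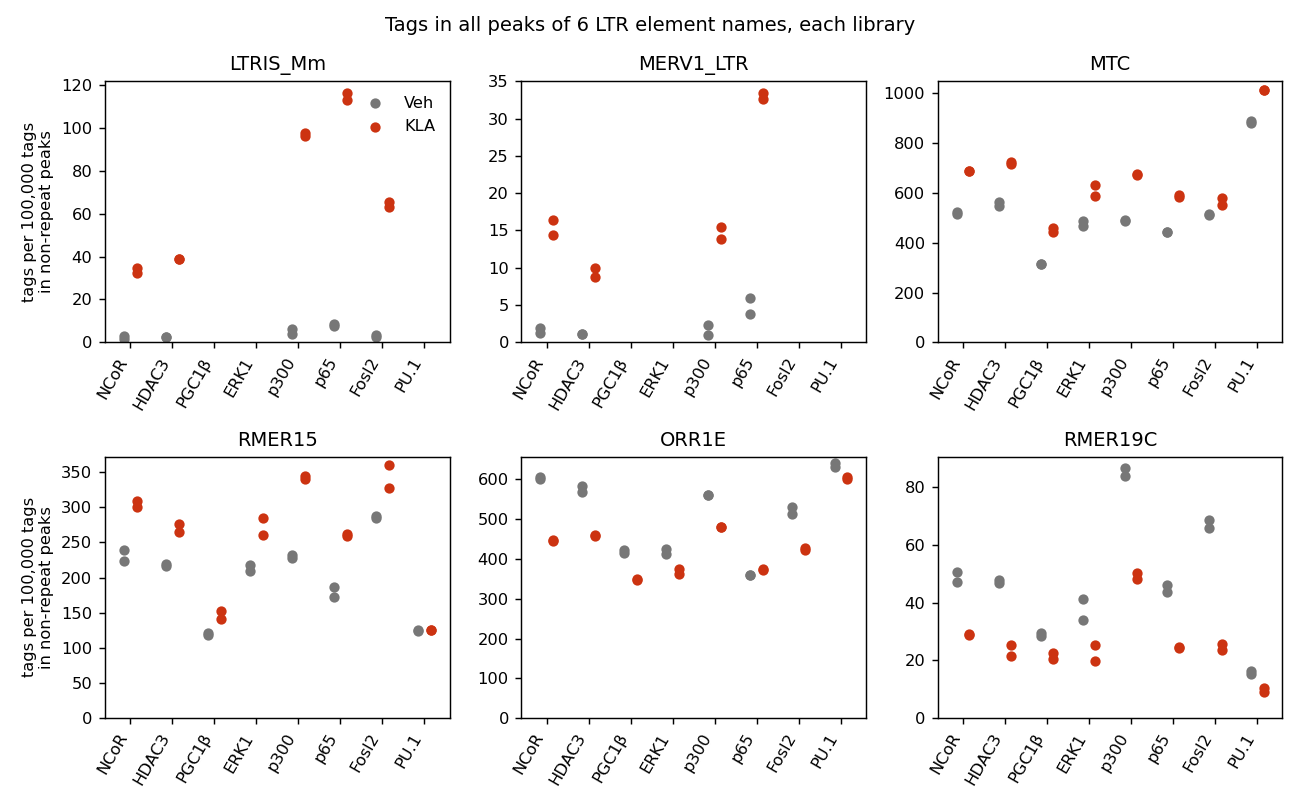
Tags per 100000 non-repeat tags (linear y axis) in each library for 6 LTR names, with KLA and Veh libraries of each factor as separate points. The KLA points of LTRIS_Mm and MERV1_LTR lie clear above the Veh points, and the RMER19C points lie below them.

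Within the MT series the median change fell from MTA to MTE for NCoR and HDAC3, and less evenly for other factors. For NCoR the median log2 change of peaks was 1.3 for MTA, 0.76 for MTB, 0.53 for MTC, 0.36 for MTD and 0.17 for MTE. For HDAC3 the medians were 1.23, 0.82, 0.69, 0.47 and 0.39 and for p65 2.18, 1.85, 1.78, 1.79 and 1.5, whereas MTC stood above MTA and MTB for p300 (1.32, 1.23 and 1.05) and PGC1β (0.80, 0.75 and 0.46). The share of words found once ran the other way, from 45.5% in MTA and 63.6% in MTB to 93.9% in MTC and 100% in MTD and MTE for NCoR. The part of this in the NCoR order was not tested.

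The share of peaks with a motif differed between names, and for some names but not all it went with their changes. In windows of 200 bp, GGGNTTTCC stood in 81.1% of LTRIS_Mm and 82.4% of LTRIS_Mus p65 peaks and in 22.2% of all ERV1 p65 peaks, against 3.71% of all p65 peaks. These letters were added after the LTRIS sequences had been seen. The high share in LTRIS, and in ERV1 of which LTRIS is a part, follows from that choice and is no test. GGANTTTCC stood in 10 of 11 MERV1_LTR p65 peaks (90.9%), in 14.1% of ERV1 and in 3.80% of all p65 peaks. GAGGAAGT stood in 26.2% of LTR peaks of PU.1 and in 18.1% of all PU.1 peaks, and in 47.4% of ORR1E and 54.7% of ORR1D2 peaks there. In NCoR peaks it was found in 38.5% of ORR1E and 44% of ORR1D2 peaks, 14.8% of MTC and 1.98% of MTA_Mm peaks and 10.7% of all peaks. TGANTCA stood in 71.4% of RMER6A and 51.2% of RMER15 NCoR peaks, against 20.9% of all. Other names went otherwise. TGANTCA stood in only 4.95% of NCoR peaks of MTA_Mm, which rose. It stood in 40% of Fosl2 peaks of RMER19C, which fell, against 28.8% of all Fosl2 peaks. GAGGAAGT stood in 5.56% of RMER19C NCoR peaks. A match is a description of these letters and not a shown site.

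LTR peaks with an NF-κB match rose more than those without. For p65, LTR peaks with GGANTTTCC had a median log2 change of 3.37 (3.22 with peaks at 0 set to their bound; 174 of 191 higher and none lower) against 1.73 without, and for NCoR 1.76 (63 higher and 3 lower of 109) against 0.22. Outside LTRIS, GGGNTTTCC went with medians of 3.34 at the bound for p65 (105 of 114 higher), 3.60 for p300 (88 of 109) and 2.07 for NCoR (46 of 70). A PU.1 match went with lower values. NCoR had a median of -0.18 at LTR peaks with GAGGAAGT (114 higher and 152 lower of 733) and 0.35 without. The same held outside repeats, where intronic and intergenic peaks with an NF-κB match had medians of 3.16 for p65 and 1.60 for NCoR, and those with a PU.1 match -0.36 for NCoR. In LTR peaks of p300, TGANTCA went with 1.51 against 0.71 without. Beside the counts given here, p65 rose at 57.0% and fell at 5.43% of all peaks. p300 rose at 42.1% and fell at 12.9%, and NCoR rose at 23.4% and fell at 16.7%. Peaks that entered a table only through its KLA libraries had to be higher there, so the counts by motif are descriptions.

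Several LTR peaks that rose lay nearest to inflammatory genes. Of the 50 genes on an inflammatory list, 20 were the nearest gene of an LTR peak of p300, where 32 of 39 such peaks rose and 1 fell (42.1% of all p300 peaks rose). For p65 23 of 27 rose (57.0% of all), for NCoR 11 of 20 with 1 lower (23.4% of all higher), for HDAC3 7 of 18 with 1 lower (27.5%), for PGC1β 6 of 9 (16.4%), for ERK1 3 of 7 (10.3%), for Fosl2 3 of 8 (11.4%) and for PU.1 4 of 15 (4.53%). An MTC peak near Nfkbia, which encodes the inhibitor that holds NF-κB in the cytoplasm, rose in PGC1β from 2.94 and 4.18 tags per 10000000 to 80.8 and 72.6 (chr12:55485846-55486101, log2 change 4.37 ± 0.44, adjusted p = 4.17e-06). A RodERV21-int peak by Mefv, the gene of the inflammasome sensor pyrin, fell for NCoR from 117 and 155 to 42.1 and 36.7 (-1.79 ± 0.27). Of an interferon-stimulated list, 10 of 15 NCoR peaks rose, 10 of 16 for HDAC3, 3 of 4 for PGC1β, 4 of 6 for ERK1, 7 of 11 for p300, 6 of 7 for p65, 1 of 4 for Fosl2 and 2 of 6 for PU.1, beside the same shares of all peaks. HDAC3 at an ORR1F peak by the antiviral gene Ifit3 went from 1.45 and 6.64 to 165 and 234 (chr19:34577495-34577864, 5.49 ± 0.48, adjusted p = 6.47e-27).

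Single peaks with the lowest p show the range. For NCoR, an intergenic RMER4A peak by Ccdc88b (chr19:6870699-6870936) held 222 and 207 tags with KLA and 11.9 and 12.9 with Veh (4.09 ± 0.29, adjusted p = 2.75e-05). An ORR1E peak by Mir6395 (chr8:34255118-34255362) held 35.6 and 44.3 with KLA and 516 and 534 with Veh (-3.71 ± 0.21). The p300 level at an SRV_MM-int peak in an intron of Antxr1 was 276 and 290 with KLA and 3.76 and 1.31 with Veh (6.75 ± 0.30). The groups were apart at each of these peaks. For p65, an MTC peak in an intron of 4933431G14Rik went from 8.76 and 11.2 to 419 and 434 (5.41 ± 0.27). A RMER6A peak by 1700055C04Rik gained PU.1, from 5.17 and 8.71 to 215 and 211 (4.96 ± 0.20, adjusted p = 2.41e-50). The median log2 change of all PU.1 peaks was -0.41 with library totals and 0.00 with TMM.

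Peaks of different factors met on shared LTR loci. The 8 stimulation tables held 9684 LTR loci, of which 3744 had a peak in 1 table and 664 in all 8. KLA raised 685 loci in at least 4 tables and lowered 177, and ERV1 made up 12.3% of the 685 and 7.65% of all loci. Of the 664 loci with a peak in all 8 tables, 16 rose in all 8 and 2 fell in all 8. Loci with a peak in fewer than 4 tables could not be called in 4. No such counts are given for non-repeat loci, so whether LTR loci stand apart was not tested.

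The RLTR48A locus printed above, whose p65 peak lay at -77222 bp from the start of Il6, the gene of an inflammatory cytokine, rose in all 8. p65 held 218 and 207 tags per 10000000 with KLA and 0.876 and 6.53 with Veh (5.84 ± 0.45). p300 held 125 and 151 with KLA and none with Veh, which is at least 71.7-fold higher, NCoR 47 and 100 against none (at least 20.7-fold), and ERK1 43 and 32.7 against none (at least 9.24-fold). PU.1 went from 0.517 and 0 to 83.7 and 86.7. Of its words, 40.6 to 57.9% occurred once. An intergenic RLTR25B locus, 219299 bp from the start of Rftn1, also rose in all 8, with 94.7% or more of its words unique. Its p65 level was 247 and 248 with KLA and 2.63 and 3.73 with Veh (6.25 ± 0.35), and its NCoR level was 99.6 and 108 against 13.1 and 14.1 (2.92 ± 0.34).

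An intronic MLT1I locus by Rassf4 rose in all 8 too, with PGC1β at 51.3 and 39.5 against 14.1 and 4.18 (2.33 ± 0.50) and p65 at 365 and 377 against 8.76 and 4.66 (5.76 ± 0.31). In the other direction, a RMER19C locus upstream of Rtp1 (chr16:23374910-23375125 in the PU.1 table) fell in all 8. NCoR held 92.3 and 89.9 tags there with KLA and 323 and 346 with Veh (-1.87 ± 0.19), p300 53.2 and 40 against 298 and 288 (-2.65 ± 0.18) and Fosl2 20.9 and 26.9 against 320 and 243 (-3.53 ± 0.79). An LTR16A locus by Wdfy2 fell in all 8 as well, with HDAC3 at 80.3 and 128 against 394 and 326 (-1.82 ± 0.39).

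**Figure D5:**
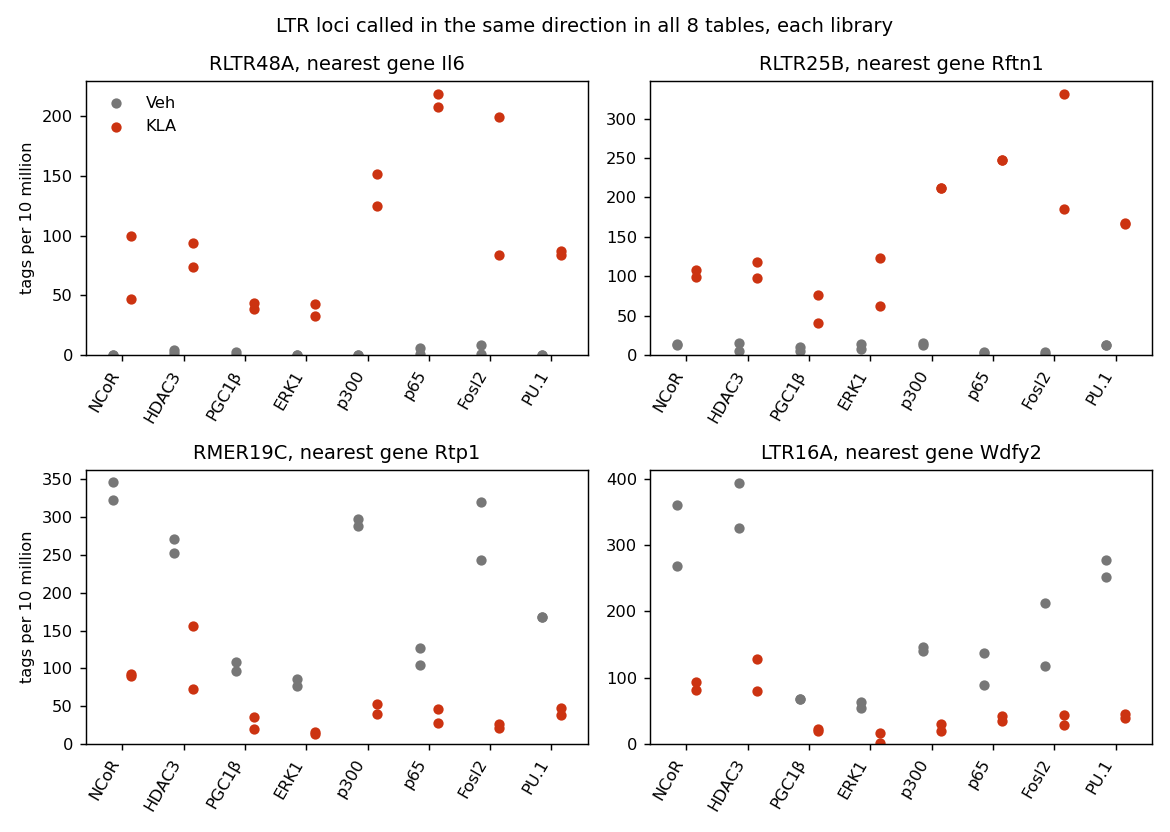
Tags per 10000000 (y axis) in each KLA and Veh library of the 8 stimulation tables at 4 LTR loci. KLA points lie above Veh points at RLTR48A by Il6 and RLTR25B by Rftn1, and below them at RMER19C by Rtp1 and LTR16A by Wdfy2.

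ERK inhibition was examined for PGC1β and NCoR. For PGC1β 1 of 3258 LTR peaks rose and 7 fell with ERKi and KLA against DMSO and KLA (0.108% and 0.178% of all peaks), and the median log2 change was -0.25 at LTR and -0.19 at non-repeat peaks. The peak that rose was an RLTR30D2_MM peak by Rabep1, at 59.4 and 58.2 against 5.92 and 2.98 (3.72 ± 0.77). Of the peaks that fell, the one with the lowest p was a MTE-int peak by Enpp6, at 15.6 and 31 against 178 and 176 (-2.89 ± 0.41, adjusted p = 0.0035). Among 135 LTR names 6 rose and 13 fell relative to non-repeat peaks (5.59% and 14.7% of all names), and 1 and 8 with whole library totals. RMER10B rose from 4.80 and 6.46 to 11.6 and 12.4 (1.08 ± 0.25), and RMER19B fell from 76.4 and 81.8 to 59.1 and 52 (-0.51 ± 0.09). LTRIS_Mm held 6.34 and 7.24 with ERKi and 5.31 and 8.41 without (-0.03, adjusted p = 0.96), and the groups overlapped.

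For NCoR 24 of 4637 LTR peaks rose and 2478 fell with ERKi (0.634% and 48.6% of all peaks). The ERKi libraries carry another date than the KLA libraries, and NCoR had no KLA library labelled with DMSO. ERKi, date and solvent therefore cannot be told apart. TMM scaling gave 114 higher and 163 lower, and moved the median of all peaks from -1.20 to -0.04. Relative to non-repeat peaks 19 of 167 LTR names rose and 46 fell (8.93% and 36.3% of all names), and with whole library totals 0 rose and 163 fell. LTRIS_Mm held 21.7 and 19.5 tags per 100000 with ERKi and 31.7 and 33.8 without (-0.67 ± 0.12), MTA_Mm 119 and 121 against 171 and 178 (-0.54 ± 0.05) and ORR1E 440 and 435 against 443 and 439 (-0.01). MLT2C1, on 5 peaks, rose from 8 and 8.58 to 18 and 13.9 (0.95 ± 0.17), and this value was -0.16 with whole library totals. An ORR1E peak by Atp10a (chr7:58859016-58859295) held 33.8 and 31 tags per 10000000 with ERKi, 217 and 245 with KLA alone and 186 and 193 with Veh.

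In osteoclast culture p300 rose at 993 of 1345 LTR peaks by day 4 and fell at 2 (62.2% and 0.248% of all peaks). With TMM 154 rose and 16 fell, and with DESeq2 45 and 6. The median log2 change was 2.19 at LTR peaks, 1.79 at non-repeat peaks and 2.02 at those of introns and intergenic DNA, with families between 2.03 (ERVK) and 2.41 (ERV1). Among LTR names 21 of 65 rose relative to non-repeat peaks and none fell (25.7% and 0.0% of all names). That count was 1 without either day 4 library, and 42 or 44 without a day 0 library. RMER15 had the lowest p, from 233 and 214 tags per 100000 to 429 and 455 (0.98 ± 0.08, adjusted p = 0.0025). It was the ERVL name whose copies are printed above, and TGANTCA stood in 70.5% of its p300 peaks, in 58.6% of ERVL peaks and in 36.8% of all peaks of the table. The copy in an intron near Mir491 held 25.5 and 46.8 tags per 10000000 on day 0 and 118 and 149 on day 4, and the copy in Arhgef7 19.3 and 14.9 and then 125 and 138. Both stood higher in both day 4 libraries.

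Of the 20 genes on an osteoclast list, 3 were the nearest gene of an LTR peak of p300, and 3 of 3 such peaks rose (62.2% of all peaks did so). Of LTR peaks nearest to genes of the inflammatory list 3 of 4 rose, and of the interferon-stimulated list 1 of 1. An MLT1D peak upstream of Src, whose kinase is needed for the bone-resorbing ruffled border, went from 4.40 and 0 to 112 and 110 (5.14 ± 0.62, adjusted p = 1.28e-04), an MLTR11B peak by Prdm1 from 1.76 and 19.2 to 46 and 32.9 (2.26 ± 0.84), and an LTRIS2 peak by Oscar from 3.52 and 0 to 36.2 and 35.2 (3.82 ± 0.85). The second ERK1 library of day 4 was described under another replicate number, with a later date than the other ERK1 libraries of this table. Its description also lacked the NCoRWT label that those libraries carry. ERK1 rose at 35 of 1000 LTR peaks and fell at none (2.33% and 0.0267% of all peaks), while 365 passed an unadjusted p of 0.05. With TMM scaling edgeR called none (129 at an unadjusted p under 0.05), and DESeq2 called none (103). No LTR name passed the edgeR test for ERK1 on day 4 (0 of 38, with 4 at an unadjusted p under 0.05; 0.0% of all names higher and 0.917% lower). The MLT1D peak by Src held 0 and 4.2 ERK1 tags on day 0 and 32.7 and 26.3 on day 4 (3.82 ± 0.98, adjusted p = 0.045).

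H3K27ac was weak at LTR peaks, and with KLA the shares called there were near those of all peaks. Of 1075 LTR peaks 657 passed the filter of 16 tags in a library, and with KLA 50 of them rose and 19 fell in WT (6.49% and 3.72% of all peaks). The median log2 change was 0.09, and it turned to -0.06 with TMM or DESeq2. Of 42 names 5 rose and 6 fell (7.14% and 14.3% of all names), and 6 and 1 with whole library totals. MLT1C, an old MaLR name, rose from 30.5 and 27.1 tags per 100000 to 58.5 and 60.6 (1.05 ± 0.12), and RMER19C fell from 22.7 and 24.1 to 8.86 and 12.4 (-1.14 ± 0.20). The MLT1C peak by Has1, a hyaluronan synthase gene (chr17:17867137-17867405), held 95.6 and 123 tags per 10000000 with KLA and 15.8 and 15.8 with Veh (2.79 ± 0.28), and in NKO 94.5 and 75 against 13.3 and 24.4. A RMER15 peak near Dock1 fell from 53.6 and 52.5 to 4.40 and 6.89 (-3.22 ± 0.39).

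Between NKO and WT with KLA, 4 of 657 LTR peaks were higher and 4 lower (0.4% and 0.389% of all peaks), and 88 passed an unadjusted p of 0.05. No LTR name passed edgeR's test (0 of 42, with 10 at an unadjusted p under 0.05; 0.0% and 0.0% of all names). An MLT1D peak by Sh3glb1 held 41.9 and 58.3 in NKO and 11.3 and 11.7 in WT with KLA (2.11 ± 0.37, adjusted p = 0.001), and its Veh libraries were apart in the same direction, at 45 and 55.7 in NKO and 12.6 and 18.3 in WT. An ORR1E peak by Pik3cb held 12.7 and 11.1 in NKO and 44.6 and 53.1 in WT (-2.02 ± 0.39, adjusted p = 0.0028).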

How the data were processed

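ChIP-seq of 8 factors and of H3K27ac was deposited as 13 tables of raw tag counts per peak, with 60 columns from 56 libraries, since both NCoR tables hold the same 4 libraries. Single-end reads were aligned by the authors to mm10 with Bowtie2, and factor peaks were called with HOMER, kept where replicates agreed by IDR, merged over conditions, counted with at most 3 tags per position and annotated. Tool versions, and how reads that fit several copies of an element were placed, are not given in the sources used here. Groups came from the labels, and no per-sample column was left out.

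Counts were tested with edgeR 4.0.16 (R 4.3.3), quasi-likelihood, with library totals as library size, for peaks with at least 4 tags in 1 library (16 for H3K27ac), at a Benjamini-Hochberg adjusted p of 0.05 and a fold of 2. Each comparison was fitted over every row of its table, and the scripts were tested on simulated data. For names, tags were summed over all peaks of a repeat name (at least 5 peaks and 20 tags) with tags in non-repeat peaks as library size, and no fold threshold was set. Levels are tags per 10000000 tags of the library. Alternatives were TMM, DESeq2 1.42.0, no filter, other library sizes, a block on replicate number and each library left out. Comparisons with intronic and intergenic peaks, the unique-word limit, GGGNTTTCC and the H3K27ac interaction were chosen after seeing the data. Sequence was read from RefSeq GRCm38.p6. Named peaks were those with the lowest p in each direction and the most tags, the loci called in the most tables, the 5 leading names of a table, the names with the lowest p, and peaks nearest to genes of the lists. The members and lists were chosen with earlier results of these data known. RLTR48A, MERV1_LTR, RMER6A, RMER15, RMER19C and IAPLTR3-int were singled out after their values were seen. In bulk samples, fewer cells with a factor bound and less factor per cell cannot be told apart. Totals of 4296236 to 21511411 tags limit the precision of weak peaks.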

Additional observations from a re-analysis of the deposited data

Results flagged for a closer look

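H3K27ac at the ORR1E peak by Pik3cb, a phosphoinositide 3-kinase gene, moved in opposite directions with KLA in WT and NKO. It held 44.6 and 53.1 tags per 10000000 with KLA and 12.0 and 17.8 with Veh in WT, and 12.7 and 11.1 with KLA and 24.3 and 18.0 with Veh in NKO. The KLA effect in NKO minus that in WT was -2.50 ± 0.56 on the log2 scale (edgeR interaction contrast, adjusted p = 0.016), a contrast added after seeing the data. The peak had been named for its difference between NKO and WT with KLA, so this value is not independent of that choice. At the MLT1C peak by Has1, the RMER15 peak by Dock1 and the MLT1D peak by Sh3glb1 the same contrast gave -0.65 ± 0.41, -0.08 ± 0.62 and 0.42 ± 0.51, and none passed.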

How the results depend on the processing

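Scaling and single libraries moved counts of called LTR peaks most, and the causes were not tested. With TMM the number called was 410 for PGC1β in DMSO, 5 for PGC1β with ERKi, 277 for NCoR with ERKi, 1848 for p65, 676 for Fosl2, 0 for ERK1 on day 4 (129 at an unadjusted p under 0.05) and 170 for p300 on day 4, and the Fosl2 gap in median log2 change between LTR and non-repeat peaks was 0.10. DESeq2 called 42 for PGC1β with ERKi, 386 for NCoR with ERKi, 1748 for p65, 763 for Fosl2, 0 for ERK1 on day 4 (103 at an unadjusted p under 0.05) and 51 for p300 on day 4. Replicate numbers did not pair the libraries (correlations of deviations from -0.04 to 0.03 in 15 comparisons). With the replicate block 3 LTR peaks were called for PGC1β with ERKi, 113 for Fosl2 and 662 for p300 on day 4, and 3 LTR names for NKO against WT. Leaving out 1 library at a time, where a lone library is assumed to vary like the others, gave 682 (without KLA 2) to 2145 (without Veh 1) LTR peaks for NCoR, with 732 without KLA 1. The range was 622 (without Veh 2; 651 without Veh 1) to 1841 for HDAC3, 308 (without Veh 1; 339 without Veh 2) to 1041 for PGC1β, 310 (without Veh 1; 404 without Veh 2 and 434 without KLA 1) to 474 for PGC1β in DMSO, 0 (without DMSO KLA 1 or ERKi 1) to 2 (without DMSO KLA 2 or ERKi 2) for PGC1β with ERKi, and 1110 (without KLA 1; 1141 without KLA 2) to 2215 for NCoR with ERKi. At the lower end of PGC1β with ERKi, 401 and 442 peaks had an unadjusted p under 0.05 in edgeR's test. It was 53 (without KLA 1; 69 without KLA 2) to 294 for ERK1, 1347 (without KLA 2; 1483 without KLA 1) to 3083 for p65, and 0 (without either Veh library, with 211 and 189 at an unadjusted p under 0.05 in edgeR's test) to 1021 (without KLA 2; 851 without KLA 1) for Fosl2. For ERK1 on day 4 it was 0 (without either day 4 library, with 130 and 321 at an unadjusted p under 0.05 in edgeR's test) to 91 (without day 0 library 1; 89 without 2), for p300 on day 4 222 (without day 4 library 1; 226 without 2) to 1122, for H3K27ac 28 (without Veh 2; 38 without Veh 1 and 44 without KLA 2) to 73, and for NKO against WT 3 (without NKO KLA 2; 4 without NKO KLA 1 or WT KLA 2) to 6. For LTR names the range was 9 (without KLA 1) to 20 for ERK1, 0 to 2 (without day 4 library 1) for ERK1 on day 4, 6 (without Veh 1) to 10 for H3K27ac, 0 to 2 (without NKO KLA 2) for NKO against WT, 32 (without KLA 2; 36 without ERKi 2 and 40 without KLA 1) to 45 for NCoR with ERKi, 10 (without DMSO KLA 2) to 17 for PGC1β with ERKi, 32 (without Veh 1; 38 without Veh 2) to 69 for PGC1β, and 1 (without either day 4 library) to 44 (without day 0 library 2; 42 without 1) for p300 on day 4. With names of at least 10 peaks, which tests fewer names, 51 changed for NCoR, 47 for HDAC3, 32 for PGC1β, 29 for PGC1β in DMSO, 11 for PGC1β with ERKi, 34 for NCoR with ERKi, 13 for ERK1, 84 for p300, 58 for p65, 31 for Fosl2, 61 for PU.1, 1 for ERK1 on day 4, 8 for p300 on day 4, 7 for H3K27ac and 2 for NKO against WT. With library totals 70 changed for NCoR, 16 for HDAC3, 21 for PGC1β, 9 for PGC1β with ERKi, 163 for NCoR with ERKi, 2 for Fosl2, 37 for ERK1 on day 4, 65 for p300 on day 4 and 7 for H3K27ac, and 4 names reversed: MTC in PU.1 (-0.15), ORR1D2 in PGC1β with DMSO (0.18), MLT2C1 in NCoR with ERKi (-0.16) and MLT1G1 in p65 (0.04). Against non-repeat peaks of introns and intergenic DNA, chosen after seeing the data, the gap in median log2 change was 0.15 for NCoR, 0.13 for HDAC3, 0.11 for PGC1β in DMSO, -0.04 for PGC1β with ERKi, -0.13 for NCoR with ERKi, 0.10 for ERK1, 0.12 for p300, 0.16 for p65, 0.02 for Fosl2, 0.02 for PU.1, 0.08 for ERK1 on day 4, 0.17 for p300 on day 4 and 0.02 for H3K27ac, the strength ratio of H3K27ac was 0.668, and 4 names changed for NKO against WT. Among distal peaks the gap was 0.14 for NCoR, 0.12 for HDAC3, -0.04 for PGC1β with ERKi, -0.12 for NCoR with ERKi, 0.08 for ERK1, 0.10 for p300, 0.12 for p65, 0.01 for Fosl2, 0.01 for PU.1, 0.08 for ERK1 on day 4, 0.17 for p300 on day 4 and 0.04 for H3K27ac, and 11 names changed for p300 on day 4 and 5 for NKO against WT. For LTR peaks with at least 90% of words found once it was 0.12 for NCoR, 0.10 for HDAC3, 0.10 for PGC1β in DMSO, -0.04 for PGC1β with ERKi, -0.13 for NCoR with ERKi, 0.13 for ERK1, 0.27 for p300, 0.36 for p65, 0.06 for Fosl2, -0.05 for PU.1 and 0.08 for ERK1 on day 4. Over all alternatives 720 values of named peaks kept direction and side of the threshold, 68 lost the call and 4 gained one, and for names 211 kept both, 5 lost the call and 4 reversed.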
